A study of Sus scrofa with 10 samples.

Results

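TCF4, MEF2C, RUNX1T1, EYA2 and TRPS1 are genes of transcription factors and of proteins that act with them, and the study of these data named all 5 for neurons that express RELN, the gene of the secreted protein Reelin. They were taken by name and are 5 of the 22452 genes in the deposited counts. The counts come from the medial entorhinal cortex (MEC) of the pig, Sus scrofa, as the study names the tissue, and hold the unique molecular identifiers (UMIs) of each gene in 28229 single cells or nuclei of 10 libraries. Whole cells were dissociated with papain from fresh tissue at embryonic day 50 (E50, library E50_1 from 3 pooled brains), E60 (E60_1 and E60_2 from 1 brain each, E60_3 from 2) and E70 (E70_1 from 2 brains, E70_2 and E70_3 from 1 each), and from 1 adult brain (Adult_1). Nuclei were sorted from snap-frozen tissue of 1 brain at E70 (E70_nc) and of 1 adult brain (Adult_nc). The fetuses were crossbreeds of Danish Landrace/Yorkshire sows and Duroc boars, the labels name no treatment or altered gene in any group, and E60 and E70 whole cells alone had more than 1 library. Of the replicate libraries the labels give only the number of brains, so the p-values here measure the spread between these libraries, which may in part be technical.

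TCF4 is a basic helix-loop-helix E protein, which binds DNA as a partner of proneural factors and is held off DNA by the ID proteins. MEF2C is a MADS-box factor that is kept silent by class IIa histone deacetylases and is known from neurons, microglia, vessels and muscle. RUNX1T1 is a corepressor that brings NCOR proteins and histone deacetylases to genes, EYA2 is a coactivator and phosphatase that works with DACH proteins, and TRPS1 is a zinc finger protein of the GATA type that represses genes. Stellate cells of the entorhinal cortex, which contain Reelin, are principal neurons that send axons to the hippocampus.

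In the RefSeq annotation of the pig genome Sscrofa11.1 TCF4 lies at chr1:104718809-105079919 and MEF2C at chr2:96122407-96296927, both on the minus strand. On the plus strand, TRPS1 lies at chr4:22905627-23162862, RUNX1T1 at chr4:44600292-44745954 and EYA2 at chr17:48930682-49243789. Exons made up 1.92% of the TCF4 locus, 1.51% of the EYA2 locus, 5.0% of the MEF2C locus, 4.91% of the TRPS1 locus and 8.63% of the RUNX1T1 locus. The study counted reads on unspliced transcripts, so UMIs from introns are part of every level given here. EYA2 was among the genes that the study cloned, and its cloning oligos are shown because they mark the stretch that was amplified. The template was a plasmid with the human sequence, not the pig gene, so the pig sites below are matches only. They are given on the coding strand from 5′ to 3′, and each is followed by the pig genome at the best match. Capitals mark the start codon of the clone and the codon that matched it in the pig.
EYA2 forward oligo: ATGgtagaactagtgatctcac
EYA2 pig genome, forward site: ATGctagaactagtgatctcac
EYA2 reverse oligo: cctggagctggagtattta
EYA2 pig genome, reverse site: cctggagctggagtattta
The forward site was at chr17:49053991-49054012, in coding bases 97 to 118 of 1713, and differed from the oligo by 1 substitution, G4C, counted from 1 at the 5′ end of the oligo. The codon in capitals thus lay inside this pig coding sequence and was not its start codon. The reverse site at chr17:49243022-49243040, coding bases 1692 to 1710, was identical.

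Depth and cell makeup differed between the libraries. The total was 2336865 UMIs in Adult_nc and between 3089188 and 55755512 UMIs in the others, with a median of 690 UMIs per cell in Adult_nc, 2616 in E70_nc and 4251 to 9403 in whole cells. E60_1 and E60_2 stood apart. The 4 forebrain genes EMX1, EMX2, LHX2 and NEUROD6 summed to 7.48 and 4.05 CPM there (UMIs per 1000000 UMIs), against 77.3 to 394 CPM in the other 5 fetal whole cell libraries, so these markers of cortex were nearly absent from E60_1 and E60_2. A list of midbrain and hindbrain genes, such as EN1 and PAX3, summed to 484 CPM in E70_1 and 460 CPM in E70_2. In the other fetal whole cell libraries this sum was 104 to 159 CPM. Which brain regions a library held was not tested. E60_1 held 14 cells named as excitatory neurons and E60_2 held 1, against 120 to 2207 in the other 5 fetal whole cell libraries. Values without E60_1 and E60_2 are therefore given too for class levels of MEF2C, RUNX1T1 and TRPS1 and for some differences between stages. Any 2 libraries shared at most 57 cell barcodes, and at most 1.83% of the cells of the smaller one (E60_1 and E70_1). Cells were clustered without the 5 genes and the marker genes, and a cluster is called like a cell type by its markers. In the 7 classes compared below all markers that the files held, 7 to 10 for each class, were higher than in the other cells, and 5086 cells stayed unnamed.

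Across the whole libraries TCF4 was at 883 CPM in E50_1, at 760, 1096 and 1494 CPM in E60_1 to E60_3 and at 1207, 1617 and 1568 CPM in E70_1 to E70_3. It was at 456 CPM in Adult_1, 1140 CPM in Adult_nc and 5276 CPM in E70_nc. The E70 nuclei were thus above every other library and the adult whole cells below every other library. MEF2C was at 161 CPM in E50_1, at 101, 161 and 309 CPM at E60, at 138, 208 and 557 CPM at E70, at 260 CPM in Adult_1, at 204 CPM in Adult_nc and at 818 CPM in E70_nc. RUNX1T1 was at 516 CPM in E50_1, at 142, 218 and 263 CPM at E60, at 182, 293 and 336 CPM at E70, at 64.7 CPM in Adult_1, at 121 CPM in Adult_nc and at 1410 CPM in E70_nc. For both genes the libraries of E60 and E70 whole cells overlapped.

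EYA2 and TRPS1 behaved differently from these. EYA2 was at 201 CPM in E50_1, at 182, 180 and 355 CPM at E60, at 2113, 1986 and 507 CPM at E70, at 1253 CPM in Adult_1, at 2420 CPM in E70_nc and at 2686 CPM in Adult_nc. Every E70 library was above every E60 library, and the third E70 library lay closer to E60_3 than to the other E70 libraries. How many of all genes were parted between the stages in this way was not counted. TRPS1 was at 97.0 CPM in E50_1, at 454, 323 and 114 CPM at E60, at 90.7, 90.8 and 114 CPM at E70, at 166 CPM in Adult_1, at 318 CPM in Adult_nc and at 1328 CPM in E70_nc. Among whole cells the libraries high in TRPS1 were E60_1 and E60_2.

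**Figure D1:**
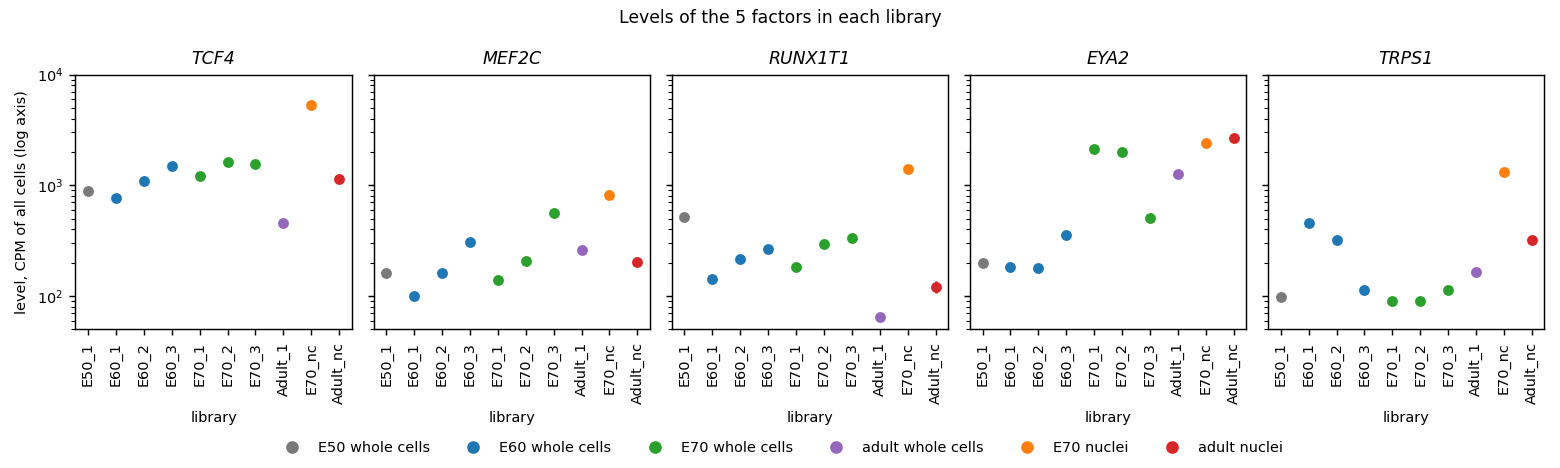
The level of each of the 5 genes in the 10 libraries, in CPM over all cells on a log axis, coloured by group, with exact Poisson intervals that cover counting error only and are mostly smaller than the points. The E70 nuclei were the highest library for 4 of the 5 genes, and EYA2 was highest in the adult nuclei.

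The first question was where the 5 genes were used among the cells of the fetal libraries, E60_1 and E60_2 included. In the fetal whole cell libraries, each sum over the cells of a class in a library held at least 20 cells, and levels are means ± SD over libraries. TCF4 was highest in interneuron-like cells with 2253 ± 224 CPM (n = 5 libraries), endothelial-like cells with 2005 ± 628 CPM (n = 5), other excitatory-like cells with 1905 ± 194 CPM (n = 5), mural-like cells with 1755 ± 359 CPM (n = 5) and intermediate progenitor-like (IP-like) cells with 1573 ± 297 CPM (n = 6). Each of these lay within 1 SD of the next in this order. Below them were oligodendroglia-like cells with 958 ± 39.4 CPM (n = 4), astrocyte and radial glia-like cells with 764 ± 91.1 CPM (n = 6), fibroblast-like cells with 421 ± 188 CPM (n = 4) and microglia-like cells with 282 ± 176 CPM (n = 6). Erythroid-like cells, which should use few factors of neurons, held 104 ± 62.1 CPM (n = 7). Other excitatory-like cells are those named excitatory outside the RELN-rich clusters and a cluster made up mostly of nuclei.

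MEF2C formed another order. It was at 638 ± 355 CPM in mural-like cells (n = 5), 621 ± 464 CPM in endothelial-like cells (n = 5), 609 ± 228 CPM in interneuron-like cells (n = 5), 358 ± 309 CPM in other excitatory-like cells (n = 5) and 354 ± 200 CPM in microglia-like cells (n = 6), and these levels overlapped. Lower means were found in fibroblast-like cells (90.7 ± 29.0, n = 4), IP-like cells (73.6 ± 49.2, n = 6), astrocyte and radial glia-like cells (59.5 ± 39.9, n = 6), oligodendroglia-like cells (39.4 ± 43.3, n = 4) and erythroid-like cells (21.8 ± 28.2, n = 7). The spread came from particular libraries. Endothelial-like cells held 342 CPM in E50_1, 246 and 264 CPM in E60_1 and E60_2, 1086 CPM in E60_3 and 1167 CPM in E70_3, so E60_3 and E70_3 were high. Other excitatory-like cells held 896 CPM in E70_3 and 119 to 314 CPM in the other 4 libraries. Without E60_1 and E60_2 MEF2C was at 865 ± 455 CPM in endothelial-like (n = 3) and 859 ± 262 CPM in mural-like cells (n = 3). Microglia-like cells were then at 410 ± 231 CPM (n = 4). E60_1 and E60_2 gave no sum of interneuron-like or other excitatory-like cells, so the means of these classes come from other sets of libraries.

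Among the classes listed here, RUNX1T1 was highest in interneuron-like and other excitatory-like cells. It was at 669 ± 115 CPM in interneuron-like cells (n = 5), 577 ± 346 CPM in other excitatory-like cells (n = 5), 274 ± 95 CPM in fibroblast-like cells (n = 4), 252 ± 119 CPM in mural-like cells (n = 5), 248 ± 116 CPM in IP-like cells (n = 6) and 194 ± 89.4 CPM in endothelial-like cells (n = 5). Astrocyte and radial glia-like cells held 89.0 ± 77.4 CPM (n = 6), microglia-like cells 69.2 ± 56.8 CPM (n = 6), oligodendroglia-like cells 41.5 ± 14.9 CPM (n = 4) and erythroid-like cells 30.3 ± 22.4 CPM (n = 7). In other excitatory-like cells the level was 1147 CPM in E50_1 and 226 to 595 CPM in the 4 later libraries, with E50_1 above all of them. Outside this order stand RELN-rich clusters described below, at 773 CPM in E50_1 (RELN6-like) and 79.8 CPM in E60_3 (RELN and CALB2-rich). Without E60_1 and E60_2 RUNX1T1 was at 173 ± 68.4 CPM in mural-like (n = 3) and 158 ± 105 CPM in endothelial-like cells (n = 3). In fibroblast-like cells it was then at 201 ± 13.3 CPM (n = 2).

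TRPS1 was low in neurons. It was at 324 ± 207 CPM in astrocyte and radial glia-like cells (n = 6), 273 ± 73.0 CPM in endothelial-like cells (n = 5), 248 ± 98.4 CPM in mural-like cells (n = 5), 184 ± 75.6 CPM in microglia-like cells (n = 6) and 158 ± 48.7 CPM in fibroblast-like cells (n = 4). IP-like cells held 114 ± 45.3 CPM (n = 6), oligodendroglia-like cells 109 ± 35.1 CPM (n = 4), interneuron-like cells 55.2 ± 26.0 CPM (n = 5), other excitatory-like cells 53.0 ± 21.9 CPM (n = 5) and erythroid-like cells 38.0 ± 44.4 CPM (n = 7). The top of this order rested on E60_1 and E60_2, where astrocyte and radial glia-like cells held 709 and 417 CPM against 181 to 227 CPM in the other 4 libraries. Without E60_1 and E60_2 the level was 220 ± 8.81 CPM in endothelial-like cells (n = 3), 205 ± 19 CPM in astrocyte and radial glia-like cells (n = 4), 177 ± 7.14 CPM in mural-like cells (n = 3) and 149 ± 64.4 CPM in microglia-like cells (n = 4).

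**Figure D2:**
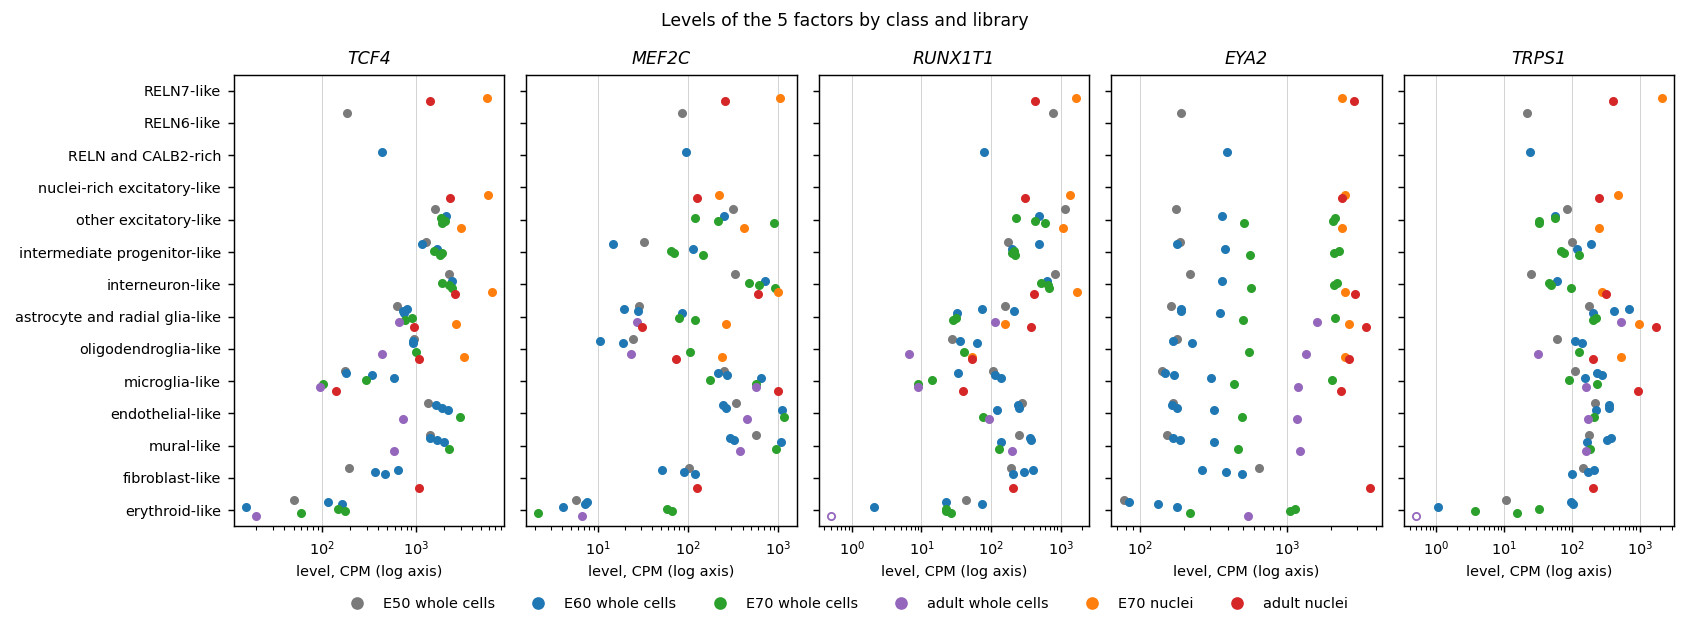
The level of each gene in each class of cells, in CPM on a log axis, with 1 point for each library that held at least 20 cells of the class, coloured by group. TCF4, MEF2C, RUNX1T1 and TRPS1 were spread by class, while EYA2 was spread by library, from 141 to 2258 CPM in the named fetal whole cells outside the erythroid-like class.

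Then 6 classes were compared with other excitatory-like cells in 1 edgeR quasi-likelihood fit over all classes and 14639 genes, with the library as a block and Benjamini-Hochberg adjusted p-values. Of the 5 genes, 3 differed in microglia-like cells, where 56% of all genes did (25.5% higher, 30.5% lower), and 4 differed in astrocyte and radial glia-like cells, where 40.4% of all genes did (18.9% higher, 21.5% lower). In oligodendroglia-like cells 3 differed beside 23.4% of all genes (9.5% higher, 13.9% lower), in endothelial-like cells 3 beside 57.5% (27.9% higher, 29.6% lower) and in mural-like cells 3 beside 58.5% (29.1% higher, 29.3% lower). In interneuron-like cells none of the 5 did, beside 6.41% of all genes (2.1% higher, 4.32% lower). The 5 genes were named by the study as higher in RELN neurons than in other cells of these same libraries, so RELN-like cells entered none of these tests.

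In microglia-like cells TCF4 fell by 2.70 ± 0.22 (log2, SE), which is 6.49-fold lower than in other excitatory-like cells (adjusted p = 4.33e-13, edgeR). RUNX1T1 fell by 3.38 ± 0.40, or 10.4-fold (adjusted p = 2.62e-09), and TRPS1 rose by 1.41 ± 0.24, or 2.65-fold (adjusted p = 5.47e-06). MEF2C, which is known from microglia, differed by 0.53 ± 0.26 (adjusted p = 0.0831), and it passed the threshold when E50_1 was left out (0.79, adjusted p = 0.0224) or when E70_3 was (0.87, adjusted p = 0.0129), and in DESeq2 (0.66, adjusted p = 0.0392). The microglial levels of TCF4 were 175 CPM in E50_1, 181, 344 and 594 CPM in E60_1 to E60_3, 295 CPM in E70_1 and 104 CPM in E70_3. All of them lay below the lowest other excitatory-like level of TCF4, 1608 CPM in E50_1.

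Astrocyte and radial glia-like cells were lower in 3 genes and higher in TRPS1. TCF4 fell by 1.43 ± 0.22 (2.70-fold, adjusted p = 1.08e-06, edgeR), MEF2C fell by 2.57 ± 0.27 (5.95-fold, adjusted p = 5.86e-10) and RUNX1T1 fell by 3.43 ± 0.39 (10.8-fold, adjusted p = 4.44e-09), whereas TRPS1 rose by 1.92 ± 0.25 (3.79-fold, adjusted p = 4.95e-08). In oligodendroglia-like cells TCF4 fell by 1.05 ± 0.25 (2.07-fold, adjusted p = 0.00162), MEF2C fell by 3.18 ± 0.35 (9.06-fold, adjusted p = 4.98e-09) and RUNX1T1 fell by 4.66 ± 0.52 (25.4-fold, adjusted p = 6.02e-09), and TRPS1 differed by 0.14 ± 0.28 (adjusted p = 0.778). RUNX1T1 in oligodendroglia-like cells was thus the largest of the tested differences of the 5 genes in this fit.

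Endothelial-like and mural-like cells were higher in MEF2C and TRPS1 and lower in RUNX1T1 in this fit. In endothelial-like cells MEF2C rose by 1.10 ± 0.27 (2.14-fold, adjusted p = 7.09e-04, edgeR), TRPS1 rose by 1.89 ± 0.26 (3.71-fold, adjusted p = 3.99e-08) and RUNX1T1 fell by 2.07 ± 0.40 (4.19-fold, adjusted p = 2.98e-05). Without E60_3 the MEF2C difference was 0.70 (adjusted p = 0.052), and without the library block it was 0.92 (adjusted p = 0.173). TCF4 differed by 0.21 ± 0.23 (adjusted p = 0.461), so TCF4 of endothelial-like cells could not be told from that of excitatory-like cells in this fit. In mural-like cells, which hold pericytes and smooth muscle, MEF2C rose by 1.23 ± 0.27 (2.35-fold, adjusted p = 1.77e-04), TRPS1 rose by 1.65 ± 0.25 (3.15-fold, adjusted p = 5.66e-07) and RUNX1T1 fell by 1.74 ± 0.40 (3.34-fold, adjusted p = 2.68e-04), with TCF4 at -0.03 ± 0.23 (adjusted p = 0.936).

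The mural-like class was made up of 2 clusters that were unlike. The cluster led by RGS5 had a median of 3.22 times the UMIs of its libraries, and its 7 endothelial markers summed to 2538 to 3482 CPM, against 3133 to 4029 CPM in endothelial-like cells. In the cluster led by ACTA2 the endothelial sum was 52.2 to 93.4 CPM. TCF4 was at 1545 CPM in the RGS5 cluster of E50_1, at 1623, 1869 and 2011 CPM in that of E60_1 to E60_3 and at 2388 CPM in that of E70_3, but at 808, 834 and 816 CPM in the ACTA2 cluster of E50_1, E60_1 and E60_2. TRPS1 of E50_1 was at 200 CPM in the RGS5 cluster and 65.9 CPM in the ACTA2 cluster, the latter below the 86.1 CPM of other excitatory-like cells there. MEF2C of E50_1 was at 613 and 340 CPM beside 314 CPM in other excitatory-like cells, and RUNX1T1 of E60_2 at 355 and 472 CPM. The part of endothelial RNA in the mural-like values was not tested. When single cells were chosen by markers in place of clusters, none of the 5 genes passed the threshold in mural-like cells, with MEF2C at 1.13 (adjusted p = 0.0806), RUNX1T1 at -1.02 (adjusted p = 0.112) and TRPS1 at 0.93 (adjusted p = 0.0733). When clusters were coarser (resolution 0.8), TCF4 fell by 1.07 (adjusted p = 0.00379) and MEF2C was at 0.70 (adjusted p = 0.111), and without batch correction TCF4 fell by 1.00 (adjusted p = 0.00499).

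No difference between interneuron-like and other excitatory-like cells passed the threshold, and that of MEF2C was the largest. MEF2C differed by 0.76 ± 0.27 (adjusted p = 0.0802, edgeR), with interneuron-like levels of 327 CPM in E50_1, 716 CPM in E60_3, and 475, 605 and 923 CPM in E70_1 to E70_3. These were above the excitatory-like level of the same library in 5 of 5 libraries. MEF2C passed the threshold without E50_1 (1.07, adjusted p = 0.0256), without E70_3 (1.04, adjusted p = 0.0418), without batch correction (1.19, adjusted p = 0.013) and in DESeq2 (0.86, adjusted p = 0.0395). The differences of the other 4 genes lay between -0.03 and 0.24 (adjusted p between 0.841 and 0.997). Over all genes 2692 had an unadjusted p under 0.05 and 979 were called by DESeq2.

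**Figure D3:**
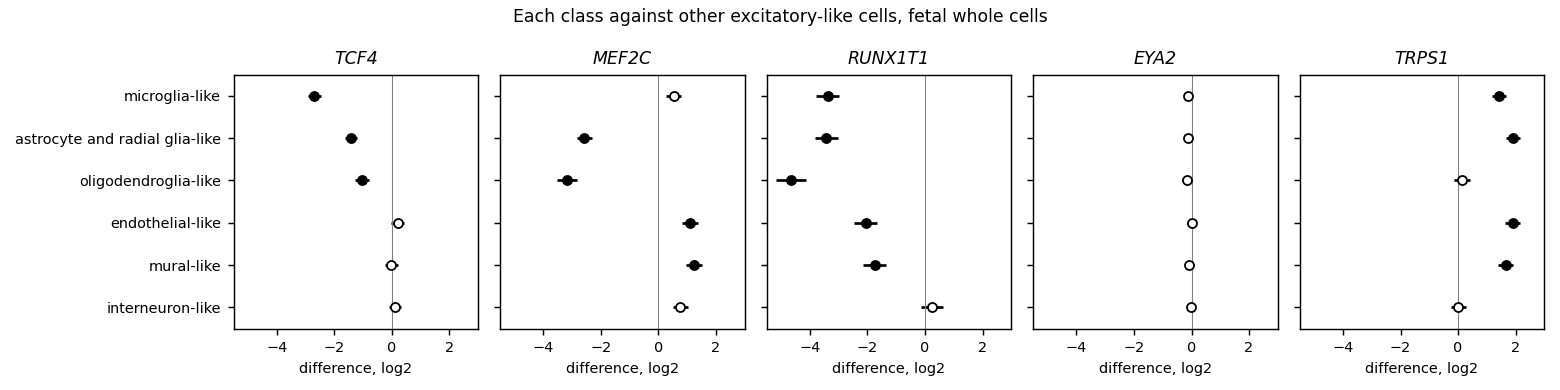
Differences (log2) of each of the 6 classes from other excitatory-like cells in fetal whole cells, with bars for the standard error and filled points for an adjusted p under 0.05. RUNX1T1 was lower in the 5 classes outside interneuron-like cells, TRPS1 was higher in 4 of these, and EYA2 lay at 0 within 0.16 in all 6.

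Shares of cells are given for E60_3 alone, with the UMIs of every cell drawn down to 1000. Between microglia-like and other excitatory-like cells they went in the direction of the fit over libraries. In that fit MEF2C did not pass the threshold (adjusted p = 0.0831, edgeR). TCF4 was seen in 86.1% of other excitatory-like cells (95% exact Clopper-Pearson interval 83.4 to 88.4%, 100% before drawing down) and in 19.6% of microglia-like cells (13.4 to 27.0%, 58.0% before). MEF2C was seen in 15% (12.5 to 17.7%, 55.9% before) and 44.1% (35.8 to 52.6%, 99.3% before) of them, and TRPS1 in 7.10% (5.39 to 9.14%, 33.3% before) and 17.5% (11.6 to 24.7%, 79.0% before). RUNX1T1 was seen in 33.7% (30.4 to 37.1%, 88.5% before) and 6.99% (3.40 to 12.5%, 29.4% before). Erythroid-like cells held a UMI of TCF4, RUNX1T1 and TRPS1 in 1.02% of cells each and of MEF2C in 2.04%. In these cells of E60_3 the 7 erythroid markers took up 544724 CPM, so fewer of the 1000 UMIs were left for other genes. Erythroid-like shares are lowered by this, and the level of free RNA was not estimated. For EYA2 the shares were 28.8% (25.6 to 32.1%, 92.9% before) in other excitatory-like cells, 24.5% (17.7 to 32.4%, 95.8% before) in microglia-like cells and 17.3% (10.4 to 26.3%, 76.5% before) in erythroid-like cells, so the intervals of this gene overlapped between erythroid-like and other cells. The median depth was 8068 UMIs in other excitatory-like, 12619 in microglia-like and 8826.5 in erythroid-like cells, and the intervals cover counting error only.

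EYA2 was nearly even between cell classes and uneven between libraries. Outside erythroid-like and unnamed cells, it ranged in E70_1 from 2001 CPM in microglia-like to 2258 CPM in IP-like cells, a ratio of 1.13, and in E70_2 from 2048 to 2126 CPM, a ratio of 1.04. The ratio of the highest to the lowest class was 1.31 in E70_3, 1.62 in E60_3, 1.79 in E60_1, 2.27 in E60_2, 4.54 in E50_1, 1.37 in Adult_1, 1.13 in E70_nc and 1.55 in Adult_nc. Fibroblast-like cells were the highest class in each of the 5 libraries that held 20 of them, with 641 CPM in E50_1, 266, 386 and 494 CPM in E60_1 to E60_3 and 3626 CPM in Adult_nc. The name is weak in Adult_nc, where their 7 fibroblast markers summed to 238 CPM, below the 310 CPM of its nuclei-rich excitatory-like nuclei. In the fetal fibroblast-like cells this sum was 8908 to 27070 CPM. The same ratio for TCF4 lay between 2.41 in E70_nc and 28.6 in E70_3.

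Against other excitatory-like cells EYA2 differed by 0.00 ± 0.15 in endothelial-like cells (adjusted p = 0.997, edgeR) and by -0.16 ± 0.17 in oligodendroglia-like cells (adjusted p = 0.550), the smallest and the largest of the 6 differences in size. Over the 55 sums of a named class in a fetal whole cell library, erythroid-like cells included, the SD of log2(CPM + 1) was 0.50 between the classes of a library and 1.31 between the libraries of a class for EYA2. The ratio of these SDs was 0.382 for EYA2, and 0.626% of 13890 genes had a lower one. It was 2.88 for TCF4 (97.6% of genes lower), 1.93 for MEF2C (68.0%), 1.88 for RUNX1T1 (64.6%) and 1.48 for TRPS1 (36.2%). EYA2 reached erythroid-like cells too, with 77.6 CPM in E50_1, 84.1, 133 and 179 CPM in E60_1 to E60_3, and 1128, 1054 and 218 CPM in E70_1 to E70_3. In these cells the 7 erythroid markers took up 322427 to 544724 CPM, which leaves fewer CPM for all other genes.

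The 3 genes whose levels were most like those of EYA2 over the 55 sums were CCBE1 (Pearson r = 0.955), ENSSSCG00000031483 (r = 0.954) and ZNF385B (r = 0.950). The sums of a library share its depth and preparation, so r is a description. CCBE1, the gene of a secreted protein of lymphatic vessels, was at 1570 CPM in E50_1, 1408, 1072 and 2942 CPM at E60, 15758, 14720 and 4405 CPM at E70, 7972 CPM in Adult_1, 17259 CPM in E70_nc and 19510 CPM in Adult_nc. All 3 had the same 5 libraries above the other 5 as EYA2 had, namely E70_1, E70_2, Adult_1 and both libraries of nuclei. These 5 libraries held 493 to 2552 cells each and the others 2696 to 8171 cells, and the part of cell number or of reads per cell in the levels was not tested.

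**Figure D4:**
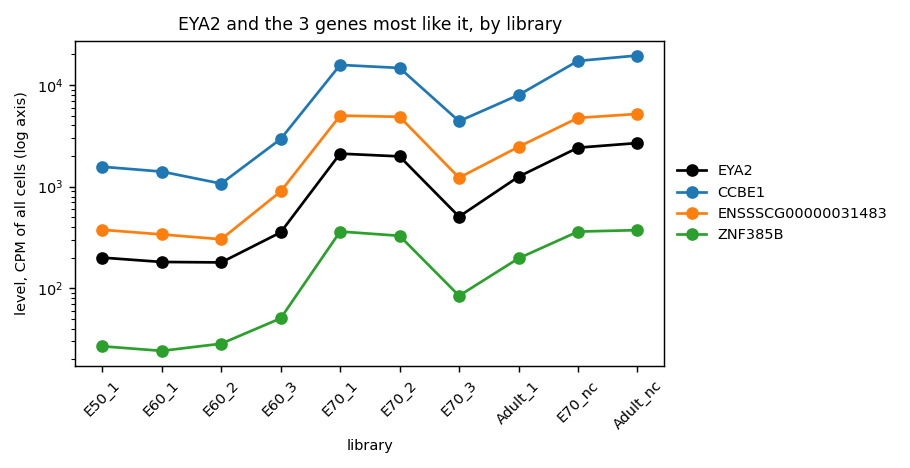
The level of EYA2 and of CCBE1, ENSSSCG00000031483 and ZNF385B in the 10 libraries, in CPM over all cells on a log axis. All 4 lines are high in E70_1, E70_2, Adult_1 and the nuclei and low in E50_1, the 3 E60 libraries and E70_3.

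The genes most like the other members did not include another member. For TCF4 they were ENSSSCG00000030560 (r = 0.931), CLASP1 (r = 0.903), the gene of a microtubule plus-end protein, and LMBR1 (r = 0.895). For MEF2C they were the amino acid transporter gene SLC7A8 (r = 0.880), CYTH1 (r = 0.855) and ST3GAL1 (r = 0.833), for RUNX1T1 MLLT3 (r = 0.861), a gene of transcription elongation, NREP (r = 0.822) and CDC42EP3 (r = 0.814), and for TRPS1 ITPRID2 (r = 0.897), the glutamate dehydrogenase gene GLUD1 (r = 0.895) and ENSSSCG00000015434 (r = 0.892). Among the 5 genes themselves r was highest between TCF4 and RUNX1T1 (0.669) and between TCF4 and MEF2C (0.598), and lowest between EYA2 and TRPS1 (-0.188).

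The clusters with RELN are described without a test, because the study chose the 5 genes on such cells. RELN7-like cells, a name for 361 cells with RELN, RORB and LEF1 among their markers (6 of 7 markers higher than elsewhere), were 95% nuclei, with 264 cells in E70_nc and 79 in Adult_nc. RELN6-like cells, with LHX9, ZFHX3 and TCF7L2 among theirs (6 of 6 higher), were 563 cells, 550 of them in E50_1. Another cluster, led by NDNF, CALB2, RELN and LHX1, is called RELN and CALB2-rich and held 71 cells. Only E60_3 had at least 20 of them, with 30 cells and RELN at 3931 CPM. RELN itself was at 263 CPM in the RELN7-like cells of E70_nc but at 1289 CPM in its interneuron-like cells, and at 93.0 and 98.2 CPM in the nuclei-rich and other excitatory-like cells.

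Of the 5 genes, TRPS1 set the RELN7-like nuclei of E70 furthest apart from the other classes. It was at 2150 CPM there (exact 95% Poisson interval 2079 to 2222 CPM), against 982 CPM (847 to 1132) in astrocyte and radial glia-like, 534 CPM in oligodendroglia-like, 475 CPM in nuclei-rich excitatory-like, 282 CPM in interneuron-like and 249 CPM in other excitatory-like nuclei. RELN7-like nuclei held 84.3% of the TRPS1 UMIs of the library and were 30.8% of its nuclei. The RELN7-like cluster had a median of 1.93 times the UMIs of its libraries, so its share of all UMIs was larger than 30.8%. The 2 shares thus overstate the difference, and by CPM the 2150 of RELN7-like nuclei stood beside 1328 over all nuclei of E70_nc, RELN7-like ones included. MEF2C was at 1043 CPM (994 to 1094) against 1000 CPM (916 to 1089) in interneuron-like, 417 CPM in other excitatory-like and 221 CPM in nuclei-rich excitatory-like nuclei. RUNX1T1 was at 1643 CPM (1581 to 1707) against 1724 CPM (1613 to 1840) in interneuron-like, 1377 CPM in nuclei-rich and 1083 CPM in other excitatory-like nuclei. For MEF2C and RUNX1T1 the intervals of RELN7-like and interneuron-like nuclei overlapped.

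TCF4 was at 5688 CPM (5572 to 5805) in the RELN7-like nuclei of E70, below the 6484 CPM of interneuron-like and the 5925 CPM of nuclei-rich excitatory-like nuclei and above the 2999 CPM of other excitatory-like nuclei. EYA2 was at 2375 CPM (2300 to 2452), within the 2349 to 2647 CPM of the other named classes. In the adult nuclei, which were shallower, the 7 RELN7 markers did not set RELN7-like cells above every other class. They summed to 1458 CPM, against 1738 CPM in nuclei-rich excitatory-like and 1699 CPM in interneuron-like nuclei, with RELN at 238, 372 and 633 CPM. The adult RELN7-like cells held TCF4 at 1409 CPM against 2597 CPM in interneuron-like nuclei, MEF2C at 253 CPM against 990 CPM in microglia-like nuclei and RUNX1T1 at 427 CPM against 419 CPM in interneuron-like nuclei. TRPS1 was at 412 CPM (328 to 510) in them, below the 1763 CPM of astrocyte and radial glia-like and the 941 CPM of microglia-like nuclei, so its order in E70 nuclei was not that of adult nuclei. The RELN6-like cells of E50_1 were at 187 CPM for TCF4, 86.4 CPM for MEF2C, 773 CPM for RUNX1T1, 189 CPM for EYA2 and 21.7 CPM for TRPS1, against 1608, 314, 1147, 177 and 86.1 CPM in other excitatory-like cells of that library. RELN6-like cells were thus lower in 4 of the 5 genes and near in EYA2. The RELN and CALB2-rich cells of E60_3 were at 441 CPM for TCF4, 95.7 CPM for MEF2C and 79.8 CPM for RUNX1T1. EYA2 was at 391 CPM and TRPS1 at 23.9 CPM in them. For TCF4 and TRPS1 they were the lowest class of E60_3 outside erythroid-like and unnamed cells.

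E60 and E70 whole cells were compared next, since they were the stages with replicate libraries. Over all cells of a library 0 of the 5 genes passed the threshold, as did 0% of 16743 genes in edgeR (0 higher and 0 lower), although 4916 genes had an unadjusted p under 0.05 and DESeq2 called 2908. EYA2 had a difference of 2.52 ± 0.58 (5.73-fold, adjusted p = 0.122) and TRPS1 of -1.84 ± 0.54 (adjusted p = 0.122), and DESeq2 called both (2.53, adjusted p = 4.67e-04, and -1.83, adjusted p = 0.0122). TCF4, MEF2C and RUNX1T1 had differences of 0.22, 0.54 and 0.21 (adjusted p between 0.541 and 0.705). In sums over a whole library, fewer cells that use a gene and less RNA of it per cell cannot be told apart.

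The TRPS1 difference depended on which E60 libraries were used, and for EYA2 the p-value did so while the difference stayed between 2.10 and 2.98. With E60_3 as the only E60 library, TRPS1 differed by -0.21 (adjusted p = 0.950) and EYA2 by 2.10 (adjusted p = 0.948), in a fit where 1 library is taken to vary as the others do, while without E60_3 both passed the threshold (EYA2 2.76, adjusted p = 0.0283, and TRPS1 -2.27, adjusted p = 0.0149). Without E70_3 EYA2 passed as well (2.98, adjusted p = 0.0088). By the study's list of sequencing pools E60_1 was sequenced with E70_1 and E60_3 with E70_3. In the first pool EYA2 was at 182 and 2113 CPM and TRPS1 at 454 and 90.7 CPM, and in the second EYA2 was at 355 and 507 CPM and TRPS1 at 114 and 114 CPM. EYA2 was thus higher at E70 in both pools, and TRPS1 was lower at E70 in the first pool only.

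Within classes, 0 of the 5 genes passed the threshold in microglia-like cells (0% of 12668 genes, 1389 with an unadjusted p under 0.05, 328 called by DESeq2), in astrocyte and radial glia-like cells (0% of 12848, 932 and 141) or in interneuron-like cells (0% of 12419, 203 and 0). In microglia-like cells RUNX1T1 was at 33.8, 113 and 139 CPM in E60_1 to E60_3 and at 14.1 and 8.83 CPM in E70_1 and E70_3, so that both E70 values were below all E60 values. The difference was -3.20 ± 0.73 (adjusted p = 0.343, edgeR), which DESeq2 called (adjusted p = 0.00398), and Adult_1 was at 8.87 CPM. The sum of E70_1 held only 20 microglia-like cells, the least that was used. The share of all genes whose E70 values lay below all E60 values in this class was not counted. In astrocyte and radial glia-like cells RUNX1T1 was at 73.9, 211 and 32.8 CPM at E60 and at 30.9 and 28.3 CPM in E70_2 and E70_3, with a difference of -1.90 ± 0.84 (adjusted p = 0.639), which was -0.11 with E60_3 as the only E60 library.

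EYA2 had differences of 2.43 ± 0.64 in microglia-like cells (adjusted p = 0.343, edgeR), 2.44 ± 0.63 in astrocyte and radial glia-like cells (adjusted p = 0.639) and 2.17 ± 0.91 in interneuron-like cells (adjusted p = 0.963, with 1 E60 library against 3). Every E70 sum was above every E60 sum in microglia-like, astrocyte and radial glia-like, IP-like and erythroid-like cells. The share of all genes with sums parted in this way was not counted, so nothing particular to EYA2 is read from it. DESeq2 called EYA2 in microglia-like cells (2.43, adjusted p = 0.00773) and in astrocyte and radial glia-like cells (2.34, adjusted p = 0.0298). For TCF4, MEF2C and TRPS1 the E60 and E70 sums overlapped in these 4 classes. The largest cluster of microglia-like cells was not the same in E60_2, in E70_1 and in the other libraries, nor was that of astrocyte and radial glia-like cells in E60_1, in E60_2 and in the others.

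Nuclei and whole cells were set side by side at E70, where 1 library of nuclei stood against 3 of whole cells and no test was made. Over all cells the nuclei held 13.5 times the mean whole cell level of TRPS1, 5.22 times that of RUNX1T1, 3.6 times that of TCF4, 2.72 times that of MEF2C and 1.58 times that of EYA2. The median of all genes was at -0.13 (log2), and 99.97% of genes had a lower ratio than TRPS1. All 5 genes were above every whole cell library by CPM. In UMIs per cell, which the lower depth of nuclei pulls down, 3 genes were, with 19 UMIs of TCF4 against 14.0 to 18.2, 5.08 of RUNX1T1 against 2.34 to 3.30 and 4.78 of TRPS1 against 1.02 to 1.16.

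The ratios were above 1 within each class too, beside a median of all genes between -0.14 (interneuron-like) and 0.54 (oligodendroglia-like, log2). TRPS1 was at 249 CPM in other excitatory-like nuclei against 32.8 to 56.3 CPM in whole cells (6.12 times their mean), at 282 against 45.3 to 95.9 CPM in interneuron-like cells (4.43 times) and at 982 against 202 to 227 CPM in astrocyte and radial glia-like cells (4.57 times). RUNX1T1 was at 2.61, 2.76 and 5.41 times the mean of whole cells in these 3 classes, TCF4 at 1.54, 2.96 and 3.22 times, and EYA2 at 1.51, 1.54 and 2.01 times. MEF2C was at 1.02, 1.5 and 2.69 times, and in other excitatory-like cells its level in nuclei, 417 CPM, lay within the 119 to 896 CPM of whole cells. RELN7-like nuclei had no counterpart of 20 whole cells at E70.

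**Figure D5:**
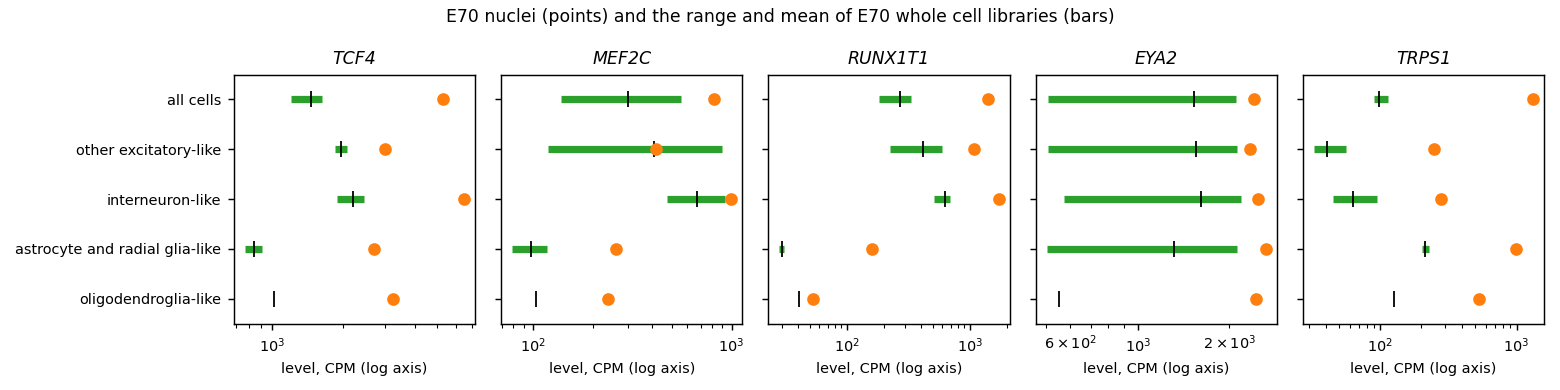
Levels of the 5 genes in E70 nuclei (points) beside the mean and range of the E70 whole cell libraries (bars), by class, in CPM on a log axis. TRPS1 and RUNX1T1 in nuclei lie above the whole cell range in every class that had both. For RUNX1T1 of oligodendroglia-like cells this rests on 0.087 UMIs per nucleus in 23 nuclei beside 1 whole cell library. Its ratio there (0.39, log2) was below the median of all genes (0.54).

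In the adult brain, with 1 library each, nuclei were higher for all 5 genes in the 3 classes with both. In astrocyte and radial glia-like cells, with 23 nuclei, the median ratio of all genes was 0.62 (log2). TCF4 (0.54) and MEF2C (0.19, at 0.0435 UMIs per nucleus) lay below it. In oligodendroglia-like and microglia-like cells all 5 genes lay above the median of all genes, 0.15 and 0.29. TRPS1 was at 208 CPM in oligodendroglia-like nuclei against 31.6 CPM in whole cells (6.60 times), at 941 against 159 CPM in microglia-like cells (5.91 times) and at 1763 against 535 CPM in astrocyte and radial glia-like cells (3.30 times). MEF2C of adult microglia-like cells was at 990 CPM in nuclei and 565 CPM in whole cells, within a class in which TCF4 was at 142 and 94.9 CPM. Over all cells MEF2C was lower in the nuclei (0.786 times), and the classes that made up the 2 libraries differed. Oligodendroglia-like cells numbered 1929 among 2552 adult nuclei and 197 among 737 adult whole cells.

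The partners of the 5 genes were taken as lists by family, and none of their genes passed the threshold between E60 and E70 in edgeR, where no gene at all did. Of the 6 E proteins and ID inhibitors, which are partners and inhibitors of TCF4, 4 rose and 1 fell in microglia-like cells, 4 rose in astrocyte and radial glia-like cells, 2 rose and 1 fell in oligodendroglia-like cells, 4 rose in endothelial-like, 5 in mural-like and 3 in interneuron-like cells. Beside these counts, the share of all genes that passed in either direction was 56% in microglia-like, 40.4% in astrocyte and radial glia-like, 23.4% in oligodendroglia-like, 57.5% in endothelial-like, 58.5% in mural-like and 6.41% in interneuron-like cells. The same shares stand behind the counts of the other lists, and nothing particular to a list is read from its count. The median difference of the E proteins and ID inhibitors in endothelial-like cells was 1.33, beside -0.09 over all genes. ID3 rose in all 6 classes, from 1.72 ± 0.53 in interneuron-like (adjusted p = 0.0439, edgeR) to 7.09 ± 0.53 in endothelial-like cells (adjusted p = 2.07e-14). ID4 rose by 3.59 ± 0.39 in astrocyte and radial glia-like cells (adjusted p = 1.5e-09), where TCF4 was lower.

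Of the 7 other MEF2 factors and class IIa deacetylases 6 were measured. MEF2A, a factor of the same family, rose by 2.34 ± 0.16 in microglia-like cells (adjusted p = 2.63e-15, edgeR), by 2.12 ± 0.17 in endothelial-like cells (adjusted p = 7.70e-14) and by 0.98 ± 0.16 in interneuron-like cells (adjusted p = 4.29e-05). In all, 4 of the 6 rose in microglia-like cells, 2 rose and 1 fell in endothelial-like, 2 rose in mural-like and 1 rose in interneuron-like cells, and 2 fell in astrocyte and radial glia-like and 3 in oligodendroglia-like cells. The deacetylase gene HDAC4 fell by 1.15 ± 0.27 in astrocyte and radial glia-like (adjusted p = 7.08e-04) and by 1.63 ± 0.36 in oligodendroglia-like cells (adjusted p = 6.58e-04), both low in MEF2C. The list's median difference was 0.84 in microglia-like cells, beside -0.14 over all genes.

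Of the 8 measured relatives and partners of RUNX1T1, 5 rose and 2 fell in microglia-like cells, 5 rose and 3 fell in endothelial-like, 3 rose and 2 fell in mural-like and 2 rose and 2 fell in oligodendroglia-like cells, while 2 fell in astrocyte and radial glia-like cells and none passed in interneuron-like cells. RUNX1, a regulator of blood and microglia, rose by 5.40 ± 0.41 in microglia-like cells (adjusted p = 2.92e-14, edgeR), and its partner CBFB by 1.74 ± 0.16 (adjusted p = 1.35e-11). CBFA2T2, a corepressor of the same family as RUNX1T1, fell by 1.49 ± 0.15 in endothelial-like cells (adjusted p = 7.62e-11) and by 1.48 ± 0.15 in mural-like cells (adjusted p = 9.33e-11), in the direction of RUNX1T1.

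DACH1, a partner of EYA proteins, rose by 3.41 ± 0.50 in endothelial-like (adjusted p = 2.05e-07, edgeR), by 3.09 ± 0.49 in mural-like (adjusted p = 1.02e-06) and by 2.42 ± 0.46 in astrocyte and radial glia-like cells (adjusted p = 4.67e-05). EYA4 rose by 1.89 ± 0.31 in astrocyte and radial glia-like cells (adjusted p = 5.28e-06), the class pair in which EYA2 differed by -0.13 ± 0.14 (adjusted p = 0.481). Of the 5 measured GATA factors and partners, 2 rose in microglia-like, 2 in astrocyte and radial glia-like, 4 in endothelial-like, 4 in mural-like and 1 in interneuron-like cells, and none in oligodendroglia-like cells. GATA2, a factor of blood and endothelium, rose by 7.78 ± 0.57 in endothelial-like cells (adjusted p = 3.03e-14) and IKZF1, a factor of blood cells, by 4.91 ± 0.33 in microglia-like cells (adjusted p = 1.90e-15), the same classes in which TRPS1 was higher.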

How the data were processed

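The authors mapped the reads with Cell Ranger (version 2.20 in the submitters' processing notes) to Sscrofa11.1 with introns included, and deposited 1 table of UMI counts per library, with no normalization. No cell was removed here. Counts were scaled per cell, 3000 variable genes were chosen without the 5 genes, markers or family lists, and libraries were merged by mutual nearest neighbours on 50 principal components and clustered by the Louvain method (resolution 1.6, and 1 within excitatory and progenitor cells). Clusters led by genes of retina, cerebellum or ependyma stayed unnamed, a rule set after seeing the clusters. Counts were summed per library and class of at least 20 cells and tested with edgeR 4.0.16 (R 4.3.3, filterByExpr, TMM), with DESeq2 1.42.0 as an alternative, at an adjusted p of 0.05. The test was also run on simulated counts, with the same mean of a gene in all sums before the changes and the spread of these data. Between E60 and E70 over all cells it found 22% of 4-fold and 71% of 8-fold changes. Between microglia-like and excitatory-like cells it found 89% of 4-fold and 96% of 8-fold changes. The genes, lists and classes were chosen with earlier results of these data known. Genes alike were the 3 of highest Pearson r among genes with 10 CPM in 3 sums, and each family list gave at most the 2 genes of largest change per comparison by name. Doublets were scored with Scrublet (scanpy 1.11.5), which marked 0 cells in E60_1 and in E60_2, so that no doublet was removed in the values given. The self-named classes can differ from those of the study. Removing the cells of highest doublet score and taking the mural-like clusters apart were alternatives chosen after seeing the data. Results of some genes of the marker and family lists are not reported here.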

Additional observations from a re-analysis of the deposited data

Results flagged for a closer look

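The 5 genes were also seen in 2 groups of cells that no test between classes used, above the 3 UMIs that a count of 0 allows in at least 5 of the 7 fetal whole cell libraries. In erythroid-like cells the median over the 7 libraries was 115 CPM for TCF4 (15.6 to 175), 7.19 CPM for MEF2C (2.2 to 67.0), 22.9 CPM for RUNX1T1 (2.07 to 73.1), 179 CPM for EYA2 (77.6 to 1128) and 15.4 CPM for TRPS1 (1.04 to 106). In unnamed cells it was 765 CPM for TCF4 (375 to 1265), 69.8 CPM for MEF2C (37.1 to 202), 158 CPM for RUNX1T1 (87.2 to 282), 339 CPM for EYA2 (189 to 2137) and 202 CPM for TRPS1 (63.0 to 586).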

How the results depend on the processing

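For E70 against E60 the 5 genes had 220 alternative values, of which 211 stayed on their side of the threshold and 9 passed it newly, and the class comparisons had 470, of which 452 stayed, 8 no longer passed and 10 passed newly. No called value changed its sign. Of the 5 genes, DESeq2 called 2 over all cells, 2 in microglia-like and 1 in astrocyte and radial glia-like cells between E60 and E70, and 1 in interneuron-like against excitatory-like cells, and it added MEF2C in microglia-like against excitatory-like cells. Leaving out 1 library at a time gave 0 to 2 genes over all cells (2 without E60_3, 1 without E70_3), 0 to 1 in interneuron-like cells between stages (EYA2 without E70_3, 2.56, adjusted p = 6.12e-06, where 1 E60 library stood against 2 and the spread came from E70_1 and E70_2 alone) and 0 to 1 in interneuron-like against excitatory-like cells (MEF2C, without E50_1 or E70_3). Cells chosen by markers gave 0 in mural-like cells, no batch correction gave 1 in interneuron-like against excitatory-like cells, and UMIs per cell put 3 genes of nuclei above whole cells. The causes were not tested.

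Same-numbered E60 and E70 libraries did not deviate together (correlations of their deviations from the group means -0.17, 0.03 and -0.13), and only those numbered 3 were closest to each other across the stages. In log2 CPM E60_3 and E70_3 had a Pearson r of 0.982. This was above the 0.903 and 0.908 of E60_3 with E60_1 and E60_2 and the 0.895 and 0.894 of E70_3 with E70_1 and E70_2. The deviations do not show this closeness, so they do not settle whether libraries pair across stages. With the replicate number as a block 0 of the 5 genes were called between E60 and E70 over all cells, in microglia-like and in astrocyte and radial glia-like cells, and EYA2 had a difference of 2.36 (adjusted p = 0.274). The block could not be fitted for interneuron-like cells, which had 1 E60 library. Without the library as a block in the class comparisons, EYA2 of mural-like cells passed the threshold (-1.84, adjusted p = 0.0432), while MEF2C of endothelial-like (0.92) and of mural-like cells (0.90) and RUNX1T1 of mural-like cells (-1.08) no longer did.

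Over all genes, calls between E60 and E70 went from 0 to 2908 over all cells, 328 in microglia-like and 141 in astrocyte and radial glia-like cells with DESeq2. They were 5902 without E60_3 and 1570 without E70_3 over all cells, 119 and 98 without E70_3 in the 2 glial classes and 3136 in interneuron-like cells, and 3 in microglia-like cells with the block or with E60_3 alone. For mural-like cells 8558 calls became 4805 with marker-chosen cells, 4685 without batch correction and 4839 at resolution 0.8. For interneuron-like cells 939 became 198 without the library block and 564, 494 and 437 without E50_1, E60_3 or E70_3, for astrocyte and radial glia-like cells 5917 became 3655 without the block, and for oligodendroglia-like cells 3419 became 2240 without E50_1. With DESeq2, which also filters and scales in another way, the median of all genes moved by up to 0.213 (log2) in the class comparisons. Leaving out some libraries was not run for oligodendroglia-like cells, which had sums in 4. The depth of Adult_nc, where 1962 of 2552 nuclei had under 1000 UMIs, limits its levels, and no difference between groups of 1 library has a replicate check.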
